A study of Mus musculus with 13 samples.

Results

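The NFAT and calcineurin genes are 10 mouse genes, namely Nfatc1, Nfatc2, Nfatc3, Nfat5, Ppp3ca, Ppp3cb, Ppp3cc, Ppp3r1, Rcan1 and Orai1. They were chosen by symbol, each matched 1 row of the deposited table of 56941 genes, and all 10 passed the filter on low counts. Their RNA was read in Th17 cells, helper T cells that make IL-17A and IL-17F. One group of 3 libraries is labelled KO, with genotype Chaf1bfl/fl;Il17fCre+, in which both alleles of Chaf1b are flanked by recombination sites and a Cre recombinase is expressed under Il17f. The other group of 3 libraries is labelled wild type (WT), with genotype Chaf1bWT, and its label does not say whether a Cre is present. Cells of both groups started as naive CD4+ T cells of the spleen and were held for 72 hours under Th17-polarizing conditions after activation. The product of Chaf1b belongs to chromatin assembly factor 1, which places histones H3 and H4 on newly copied DNA. The labels call the libraries biological replicates without saying that each came from its own animal, so what the p-values measure is the spread among these 6 libraries, which may be technical.

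NFAT proteins are transcription factors that carry the calcium signal of the T cell receptor to the nucleus. Receptor signalling empties the calcium store of the endoplasmic reticulum, STIM proteins then open the ORAI1 channel of the plasma membrane, and the calcium that enters switches on the phosphatase calcineurin. Calcineurin is made of a catalytic A subunit (Ppp3ca, Ppp3cb or Ppp3cc) and a regulatory B subunit (Ppp3r1). It strips phosphates from NFATc proteins, which enter the nucleus and act with partners such as AP-1 on cytokine genes, while kinases send them back. RCAN1 binds and restrains calcineurin, and its gene is itself an NFAT target. NFAT5 shares the DNA-binding domain but is not regulated by calcineurin. It is known for the response to high salt and high osmolarity, and in mouse T cells it is linked to the salt-driven strengthening of Th17 cells.

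The libraries held 35708879 to 38395131 counts in the group labelled KO and 38099488 to 45232055 in the group labelled WT, and the 10 genes had between 414 and 19089 counts in any library. Chaf1b itself, the targeted gene, stood no lower under the KO label, at 16.3, 14.9 and 13.5 CPM (counts per 1000000, scaled by TMM), against 13.2, 11.4 and 11.5 CPM in those labelled WT (log2 fold change 0.31 ± 0.11 (SE), adjusted p = 0.130 in edgeR's quasi-likelihood test). The counts sum all exons and the deleted part is not given in the sources used here, so the Chaf1b level cannot check the genotype. Every direction below rests on the labels. The 5 Th17 markers, Il17a and Il17f among them, were detected in all 6 libraries and summed to 33.1 to 34.9 CPM in the libraries labelled KO and 92.3 to 208 CPM in those labelled WT, with 3 of 5 called lower and none higher. The 7 CD4 T cell markers summed to 1648 to 1706 CPM in the libraries labelled KO and 1699 to 2104 CPM in those labelled WT. Marker sums of several other cell types were higher in the libraries labelled KO. Those of gamma delta T cells were 95.8 to 101 CPM in the libraries labelled KO and 50.7 to 62.6 CPM in those labelled WT (4 of 5 tested markers called higher). Those of B cells were 96.9 to 103 CPM in the libraries labelled KO and 68.0 to 81.4 CPM in those labelled WT (2 called higher and 1 lower of 4 tested). Those of dendritic cells were 182 to 187 CPM in the libraries labelled KO and 128 to 135 CPM in those labelled WT (1 of 2 tested called higher, with Siglech at 0). Sums were smaller for NK cells (15.0 to 18.9 CPM in the libraries labelled KO and 8.60 to 10.8 CPM in those labelled WT, 1 of 2 tested called higher, Ncr1 and Klrb1c at 0) and for myeloid cells (6.27 to 7.89 CPM in the libraries labelled KO and 2.44 to 2.84 CPM in those labelled WT, 1 of 4 tested called higher, S100a8 at 0). The CD8 markers Cd8a and Cd8b1 summed to 12.4 to 16.6 CPM in the libraries labelled KO and 14.1 to 15.98 CPM in those labelled WT. The part of these cells in the results below was not tested, and in bulk RNA fewer cells of a type cannot be told apart from less RNA per cell. WT replicate 1 stood apart in the Th17 genes, with 104 CPM of Il17a against 52.4 and 43.1 CPM in the other WT libraries.

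The RNA of the NFAT and calcineurin genes differed little between the groups, and Nfat5 was the one gene of the 10 to pass the threshold (an adjusted p under 0.05 in edgeR's quasi-likelihood test, adjusted by Benjamini and Hochberg over 14681 genes). It fell by 19.9% in the libraries labelled KO. None of the 10 passed as higher, and DESeq2 and limma-voom called none higher and Nfat5 alone lower. At an unadjusted p under 0.05 in edgeR's quasi-likelihood test, none was higher and 2 were lower (Nfat5 and Nfatc3). Of the 14681 genes tested, 1604 were higher and 1500 lower at that cutoff. Among all genes tested, 3.92% passed as higher, 2.47% as lower and 6.39% in either direction, so 1 in 10 is close to the background. DESeq2 called 5.15% of all genes higher and 3.88% lower, and limma-voom 3.83% and 2.09%. In 3 of the 10 genes, Nfat5, Nfatc3 and Ppp3cb, every library labelled KO lay below every library labelled WT, and in none did all lie above. The same separation downward was seen in 12.4% of all genes tested and in either direction in 26.8%. The median log2 fold change of the 10 genes was -0.02, with 4 fitted values above 0 and 6 below, beside a median of -0.01 over all genes tested. The 95% intervals of the 10 changes lay between -27.6% (Nfat5) and 30.3% (Ppp3ca).

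**Figure D1:**
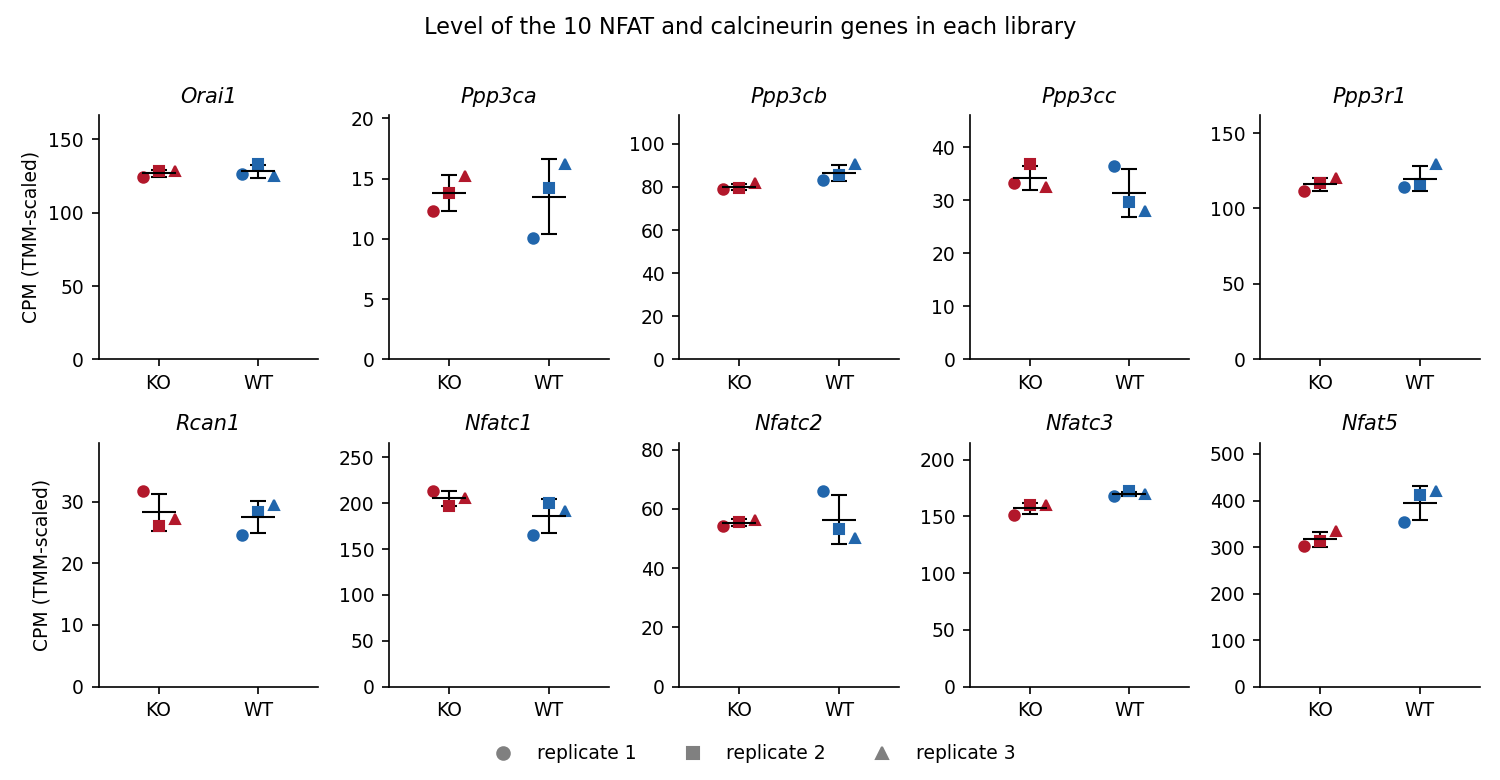
Level of each gene in CPM scaled by TMM (vertical axes, from 0) in the 3 libraries labelled KO (red, left) and the 3 labelled WT (blue, right), with replicates by marker shape and the mean ± SD in black. The groups are apart for Ppp3cb, Nfatc3 and Nfat5 and overlap for the other 7 genes.

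Orai1, the pore subunit of the calcium channel, had the smallest fitted change of the 10 genes. It stood at 124, 129 and 128 CPM in the libraries labelled KO, against 127, 133 and 125 CPM in those labelled WT. The groups overlapped, with means of 127 ± 2.34 CPM in the libraries labelled KO and 128 ± 4.30 CPM in those labelled WT (SD, n = 3 each). The log2 fold change was -0.01 ± 0.05 (SE), and did not pass edgeR's quasi-likelihood test (adjusted p = 0.907). Its 95% interval ran from a change of -8.05% to one of 6.73%.

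The calcineurin genes showed no change that passed. Ppp3cb, a catalytic subunit, was at 79.2, 79.5 and 81.8 CPM in the libraries labelled KO, against 83.1, 85.4 and 90.5 CPM in those labelled WT. The groups did not overlap, with a gap of 1.31 CPM between the nearest libraries, yet the log2 fold change of -0.11 ± 0.05 did not pass (adjusted p = 0.289 in edgeR's quasi-likelihood test). Ppp3cc, another catalytic subunit, was at 33.2, 36.8 and 32.5 CPM in the libraries labelled KO, against 36.5, 29.7 and 28.0 CPM in those labelled WT. The 36.5 CPM of WT replicate 1 fell within the range of the libraries labelled KO, while the other WT libraries lay below all of them. The fitted value was 0.12 ± 0.10 (adjusted p = 0.544), and without WT replicate 1 it was 0.25 and passed (adjusted p = 0.0199).

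Ppp3ca, the third catalytic subunit, was at 12.3, 13.8 and 15.2 CPM in the libraries labelled KO, against 10.1, 14.2 and 16.2 CPM in those labelled WT. The lowest and the highest of the 6 libraries were both labelled WT, and the spread among WT libraries (a coefficient of variation of 23.1%) was the widest seen in any of the 10 genes. The log2 fold change was 0.03 ± 0.16, with a 95% interval from -0.32 to 0.38 (adjusted p = 0.941 in edgeR's quasi-likelihood test). Ppp3r1, which encodes the regulatory B subunit, was at 111, 117 and 119.9 CPM in the libraries labelled KO, against 114, 116 and 129 CPM in those labelled WT. The groups overlapped, and the log2 fold change was -0.04 ± 0.06 (adjusted p = 0.736). The summed catalytic subunits came to 125, 130.1 and 129.5 CPM in the libraries labelled KO, against 129.7, 129.3 and 135 CPM in those labelled WT, which again overlap.

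Rcan1, the inhibitor of calcineurin that NFAT itself induces, was at 31.6, 26.0 and 27.1 CPM in the libraries labelled KO, against 24.5, 28.3 and 29.5 CPM in those labelled WT. KO replicate 1 was the highest of the 6 libraries and WT replicate 1 the lowest, and the remaining libraries lay between them, so the groups overlapped. The means were 28.3 ± 2.99 CPM in the libraries labelled KO and 27.4 ± 2.58 CPM in those labelled WT (SD, n = 3 each). The log2 fold change was 0.04 ± 0.10, with a 95% interval from -0.17 to 0.26 (adjusted p = 0.859 in edgeR's quasi-likelihood test). Rcan1 has 2 RefSeq start sites, and the internal one is known for its NFAT sites. The count sums the exons of both forms, so a shift from one start to the other would not show in it. The windows below run from 250 bases before to 50 bases after each start (RefSeq, GRCm38.p6, minus strand, 5′ to 3′) and are shown because they differ in the NFAT core motif GGAAA, whose matches on either strand (GGAAA or TTTCC) are in capitals.
Rcan1 internal start, chr16:92400029-92400328: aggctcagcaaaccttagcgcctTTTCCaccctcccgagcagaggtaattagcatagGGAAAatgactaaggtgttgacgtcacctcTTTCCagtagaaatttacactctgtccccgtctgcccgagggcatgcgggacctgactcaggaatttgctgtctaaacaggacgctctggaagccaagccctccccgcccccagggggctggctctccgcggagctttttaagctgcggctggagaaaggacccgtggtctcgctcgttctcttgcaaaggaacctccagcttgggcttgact
Rcan1 upstream start, chr16:92466120-92466419: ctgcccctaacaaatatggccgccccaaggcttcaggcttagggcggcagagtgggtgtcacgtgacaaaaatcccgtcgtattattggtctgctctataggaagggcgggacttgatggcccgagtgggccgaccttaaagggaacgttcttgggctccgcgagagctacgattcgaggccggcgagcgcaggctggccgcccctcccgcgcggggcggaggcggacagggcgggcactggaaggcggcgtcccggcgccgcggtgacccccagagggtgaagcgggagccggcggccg
The internal window held 3 matches to GGAAA and 1 to TGANTCA, the AP-1 site, and the upstream window held 0 of each. Of 32851 promoter windows of the same length, 61.3% held at least 1 GGAAA, 9.42% held 3 or more and 7.81% held TGANTCA. Such matches describe the letters only and do not show binding.

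The calcium-regulated NFAT genes, which calcineurin acts on, did not pass in either direction. Nfatc1, which is induced when T cells are activated, was at 213, 197 and 206 CPM in the libraries labelled KO, against 165, 200.6 and 192 CPM in those labelled WT. WT replicate 2 lay above KO replicate 2, so the groups overlapped, and WT replicate 1 was the lowest of the 6. Its log2 fold change was 0.14 ± 0.07 with a 95% interval from -0.01 to 0.29 (adjusted p = 0.266 in edgeR's quasi-likelihood test). Leaving out WT replicate 1 brought it to 0.06 (adjusted p = 0.323).

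Nfatc2, a factor already present in resting T cells, was at 54.1, 55.6 and 56.3 CPM in the libraries labelled KO, against 65.8, 53.3 and 50.04 CPM in those labelled WT. The libraries labelled KO lay within the range of those labelled WT, whose values ran wider (an SD of 1.12 CPM in the libraries labelled KO and 8.34 CPM in those labelled WT), and WT replicate 1 was the highest of the 6. The log2 fold change was -0.03 ± 0.09 (adjusted p = 0.903 in edgeR's quasi-likelihood test), and it was 0.10 without WT replicate 1 (adjusted p = 0.255).

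Nfatc3 was at 151, 159.8 and 159.8 CPM in the libraries labelled KO, against 168, 172 and 169.5 CPM in those labelled WT. The groups were 8.18 CPM apart at their nearest, with means of 157 ± 4.84 CPM in the libraries labelled KO and 169.8 ± 2.00 CPM in those labelled WT (SD, n = 3 each). The log2 fold change was -0.11 ± 0.05 and edgeR's quasi-likelihood test gave an unadjusted p of 0.0343 and an adjusted p of 0.191. It passed without WT replicate 1 (-0.12, adjusted p = 0.0429) and with quality weights per library (-0.12, adjusted p = 0.0376), and in none of the other 12 alternatives tried. Those weights called 10.6% of all genes higher and 9.37% lower.

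Nfat5, the osmotic-stress factor of the family, was at 303, 313 and 334 CPM in the libraries labelled KO, against 353, 412 and 419 CPM in those labelled WT. All libraries labelled KO were below all those labelled WT, with a gap of 19.0 CPM. These levels rest on 10636, 11922 and 12287 counts in the libraries labelled KO and 14473, 15825 and 19089 counts in those labelled WT. From start to end Nfat5 overlaps the gene Gm51546 in RefSeq, and whether their counted exons overlap was not tested. The means were 316 ± 15.8 CPM in the libraries labelled KO and 395 ± 36.6 CPM in those labelled WT (SD, n = 3 each). The log2 fold change was -0.32 ± 0.07, and its 95% interval reached from -0.47 up to -0.17. In edgeR's quasi-likelihood test the adjusted p was 0.0181. The size of this change exceeded that of 77.1% of all genes tested. Leaving out 1 library ended the call in 4 fits, those without KO replicate 1 (-0.29, adjusted p = 0.129), KO replicate 2 (-0.31, 0.106), KO replicate 3 (-0.36, 0.0583) or WT replicate 2 (-0.29, 0.104). It was kept without WT replicate 1 (-0.39, adjusted p = 1.4e-08) or WT replicate 3 (-0.27, 0.0285), and in the 8 alternatives that used all libraries (adjusted p from 1.215e-07 to 0.0240). The 4 fits that lost it called few genes lower at all, namely 0.461%, 0.475%, 0.593% and 0.648% of those tested in the order just given, and the fit without WT replicate 3 called 2.93%. With all libraries the shares were 2.52% with DESeq2 size factors, 2.49% with upper-quartile factors, 2.86% with no filter, 3.59% with the stricter filter and 1.57% with the replicate number as a block.

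The window around the RefSeq start of Nfat5 (GRCm38.p6, plus strand, 5′ to 3′) is shown because Nfat5 is the gene of the 10 that passed, with GGAAA or TTTCC in capitals.
Nfat5, chr8:107293220-107293519: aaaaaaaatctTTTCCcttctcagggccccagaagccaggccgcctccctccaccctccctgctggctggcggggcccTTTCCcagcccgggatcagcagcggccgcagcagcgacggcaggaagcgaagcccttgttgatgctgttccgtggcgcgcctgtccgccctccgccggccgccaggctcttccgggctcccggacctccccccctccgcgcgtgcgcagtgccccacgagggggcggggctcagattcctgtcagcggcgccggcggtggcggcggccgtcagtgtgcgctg
It held 2 matches to GGAAA and none to TGANTCA. Windows of 7 of the 10 genes were used, and 6 of their 10 windows held GGAAA, close to the share among all windows. The window of Ppp3cb held 4 matches, and 2.65% of all windows held 4 or more. Windows of Ppp3ca and Ppp3cc were not matched, and any of Nfatc1 were left out by chromosome, so these counts do not cover them.

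**Figure D2:**
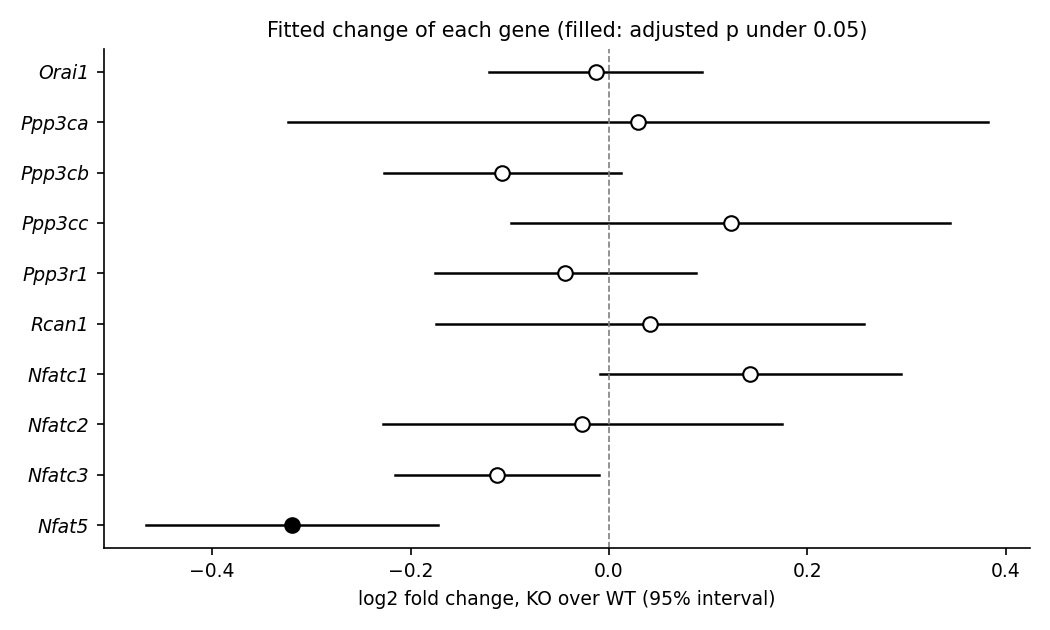
Fitted log2 fold change of each gene, KO over WT (horizontal axis), with its 95% interval as a line and a filled point where the adjusted p was under 0.05. Nfat5 is the one filled point, at -0.32, and the interval of Nfatc3 also lies below 0.

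The make-up of the NFAT family by raw counts was also described in each library, with no test. Nfat5 made up 42.0%, 43.1% and 44.2% of the counts of the 4 NFAT genes in the libraries labelled KO, against 46.9%, 49.2% and 50.5% in those labelled WT. Nfatc1 made up 29.5%, 27.2% and 27.2% in the libraries labelled KO, against 22.0%, 23.9% and 23.1% in those labelled WT. For both genes the groups did not overlap. The groups overlapped for Nfatc2 (7.46% to 7.66% in the libraries labelled KO and 6.02% to 8.76% in those labelled WT) and for Nfatc3 (21.0% to 22.0% in the libraries labelled KO and 20.4% to 22.3% in those labelled WT). The table gives no gene lengths, so a share describes counts and not molecules, and only differences between libraries can be read from it. The shares of a library are parts of the same whole, so a lower share of Nfat5 by itself raises the others. In CPM the groups overlapped for Nfatc1, and its change did not pass (adjusted p = 0.266 in edgeR's quasi-likelihood test). The 4 NFAT genes summed to 721, 725 and 756 CPM in the libraries labelled KO, against 752, 838 and 831 CPM in those labelled WT, with an overlap at WT replicate 1. Among the catalytic subunits Ppp3cb made up 61.1% to 63.5% in the libraries labelled KO and 64.1% to 67.2% in those labelled WT, which do not overlap, and the shares of Ppp3ca and Ppp3cc did.

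**Figure D3:**
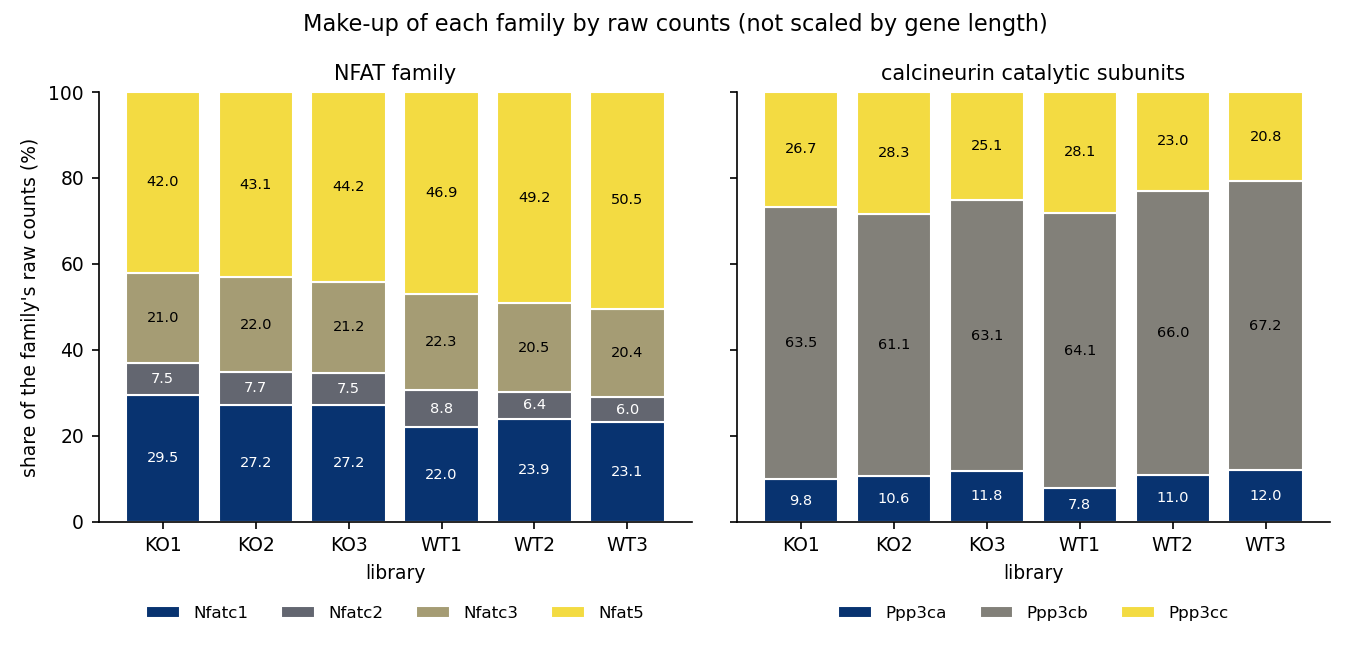
Share of each gene in the raw counts of its family (vertical axis, percent) in each library, KO libraries left of WT libraries, for the 4 NFAT genes and the 3 calcineurin catalytic subunits. The Nfat5 block is smaller in all 3 libraries labelled KO (at most 44.2%) than in any labelled WT (at least 46.9%).

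WT replicate 1 was the lowest of all 6 libraries for Nfatc1, Ppp3ca and Rcan1 and the highest for Nfatc2. Other libraries were extremes for more of the 10 genes. KO replicate 1 was the lowest for Nfatc3, Nfat5, Ppp3cb, Ppp3r1 and Orai1 and the highest for Nfatc1 and Rcan1. WT replicate 3 was the highest for Nfat5, Ppp3ca, Ppp3cb and Ppp3r1 and the lowest for Nfatc2 and Ppp3cc. Among WT libraries 8 of the 10 genes varied more than among those labelled KO. The share of all genes that did so was not worked out. The fit without WT replicate 1 had 2 of the 10 genes pass as lower (Nfat5 and Nfatc3) and 1 as higher (Ppp3cc). That fit called 10.6% of all genes higher and 9.12% lower, against 3.92% and 2.47% with all libraries.

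**Figure D4:**
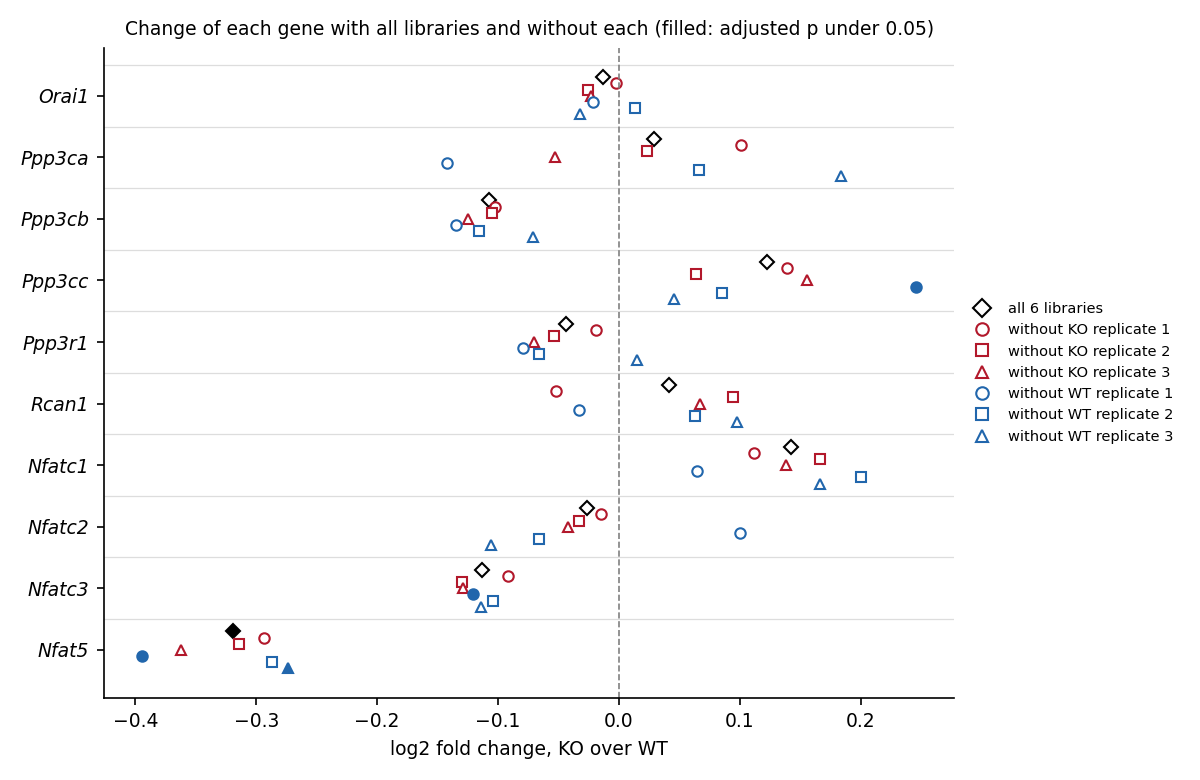
Log2 fold change of each gene, KO over WT (horizontal axis), with all 6 libraries (black diamond) and without each library (red where one labelled KO was left out, blue where one labelled WT was), filled where the adjusted p was under 0.05. Nfat5 stays below 0 in every fit, from -0.39 to -0.27, while Ppp3ca, Rcan1, Nfatc2, Orai1 and Ppp3r1 cross 0.

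Genes around the 10 in the same pathway mostly did not pass. Of 22 genes of calcium entry and storage, 2 were higher and none lower, beside 3.92% and 2.47% of all genes, with a median log2 fold change of 0.06. At an unadjusted p under 0.05 in edgeR's quasi-likelihood test, 4 were higher and 1 lower, beside 1604 and 1500 of the 14681 genes tested. DESeq2 and limma-voom each called 2 of the 22 higher and none lower. Saraf, a brake on store-operated calcium entry, was at 483, 455 and 466 CPM in the libraries labelled KO, against 402, 403 and 422 CPM in those labelled WT (0.19 ± 0.04, adjusted p = 0.0253 in edgeR's quasi-likelihood test). The Saraf call was lost without any KO library or WT replicate 2 (adjusted p from 0.0989 to 0.177) and with the replicate number as a block (0.0656). The groups did not overlap.

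None of the 7 tested inhibitors and binding proteins of calcineurin passed in edgeR's quasi-likelihood test, beside 3.92% of all genes higher and 2.47% lower. At an unadjusted p under 0.05, 1 of the 7 was higher and 1 lower, beside 1604 and 1500 of the 14681 genes tested. DESeq2 and limma-voom called none of the 7. The most abundant of the 7 were immunophilin genes. Ppia averaged 1239 ± 35.5 CPM in the libraries labelled KO and 1138 ± 21.2 CPM in those labelled WT (SD, n = 3 each), and the groups did not overlap. Fkbp1a averaged 265 ± 4.72 CPM in the libraries labelled KO and 258 ± 16.02 CPM in those labelled WT, and Fkbp8 averaged 189 ± 4.96 CPM in the libraries labelled KO and 175 ± 14.4 CPM in those labelled WT, with overlap in both. Ppia and Fkbp1a encode the proteins through which cyclosporin and tacrolimus block calcineurin. Rcan2 and Ppp3r2 had 0 counts throughout, a reading that allows up to 3 per library, and Akap5 had 33 in all and was not tested. None of 11 tested kinases and retention factors of NFAT passed (1 higher and 2 lower at an unadjusted p under 0.05, and none in DESeq2 or limma-voom). Csnk1a1, Csnk1d and Gsk3a encode kinases that phosphorylate NFAT, which keeps it in or returns it to the cytoplasm. Csnk1a1 averaged 447 ± 4.82 CPM in the libraries labelled KO and 443 ± 18.8 CPM in those labelled WT, Csnk1d 272 ± 7.67 CPM in the libraries labelled KO and 283 ± 3.44 CPM in those labelled WT, and Gsk3a 128.9 ± 4.79 CPM in the libraries labelled KO and 128.9 ± 1.03 CPM in those labelled WT. Nfatc4, the remaining calcium-regulated NFAT gene, had 14 counts over the 6 libraries and was not tested.

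Of 27 tested genes known as NFAT targets in T cells, 13 did not pass, 10 were higher (Il3, Il13, Csf2, Ifng, Tnf, Cd40lg, Havcr2, Lag3, Egr3 and Nr4a3) and 4 were lower (Il17a, Il17f, Irf4 and Foxp3), beside the 3.92% and 2.47% of all genes. The median log2 fold change of the list was 0.38, against -0.01 over all genes tested. Several of these genes were known to differ from earlier work on the same libraries when the list was written. Neither the count nor the median is therefore independent evidence. Ifng, the Th1 cytokine, was at 151, 124 and 124 CPM in the libraries labelled KO, against 33.5, 50.2 and 57.4 CPM in those labelled WT (1.497 ± 0.20, adjusted p = 0.00766 in edgeR's quasi-likelihood test). Il3, a growth factor for myeloid cells, was at 162, 129.8 and 140.3 CPM in the libraries labelled KO, against 61.4, 48.9 and 48.2 CPM in those labelled WT (1.45 ± 0.11, adjusted p = 5.56e-05). Il17a (-2.89 ± 0.39, adjusted p = 0.0181) and Il17f (-2.83 ± 0.39, adjusted p = 0.0135) fell in the libraries labelled KO, and Il17f is also the locus named for the Cre. Ifng did not pass when low counts were left unfiltered (adjusted p = 0.0618), nor did Il17a without KO replicate 1 or 2 (0.0507 and 0.0712) or Il17f without KO replicate 2, with no filter or with limma-voom (0.0522, 0.0578 and 0.0569). Foxp3 was also lost without KO replicate 1, 2 or 3 (adjusted p = 0.0533, 0.0593 and 0.0579), and Nr4a3 without KO replicate 1 or 3 (0.0793 and 0.0506). The marker sums of gamma delta T cells and other cell types given above were also higher in the libraries labelled KO, and their part in these changes was not tested.

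**Figure D5:**
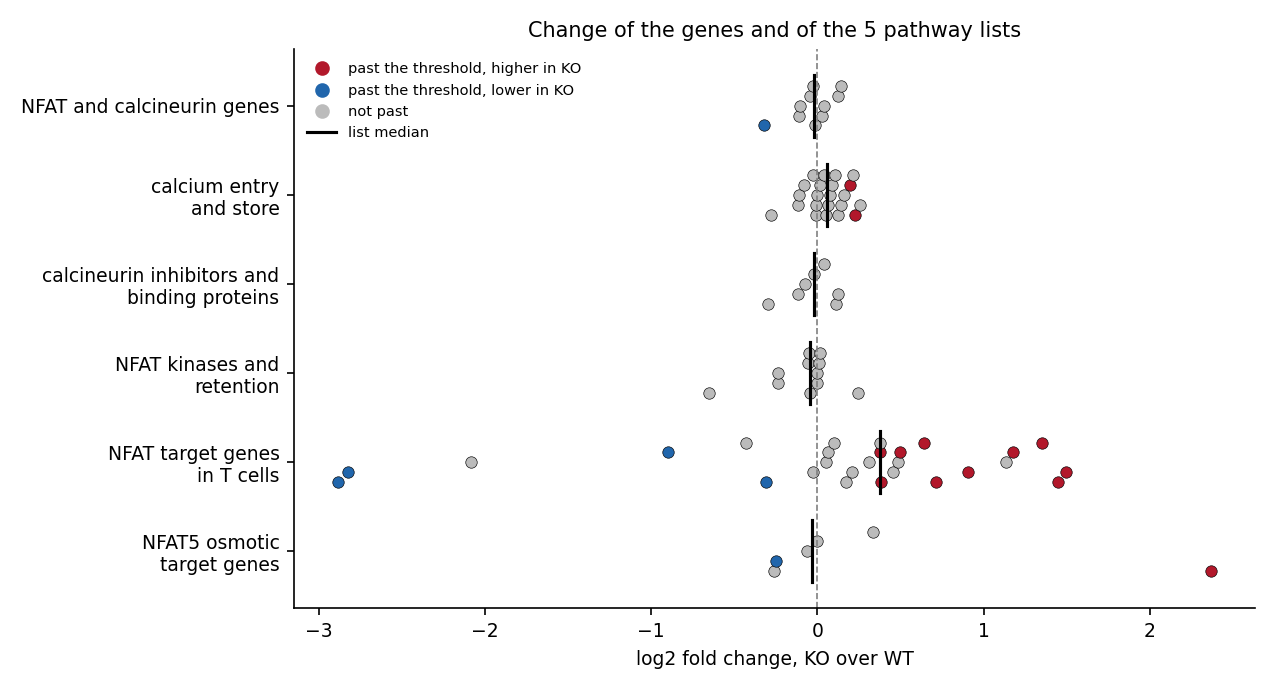
Log2 fold change, KO over WT (horizontal axis), of the 10 genes and of the tested genes of 5 pathway lists, 1 point a gene, red where called higher, blue where called lower and grey otherwise, with the list median as a black bar. The NFAT target genes spread from -2.89 to 1.497, while the 10 genes lie between -0.32 and 0.14. Several of the target genes were known to differ when their list was written.

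Genes that NFAT5 drives under osmotic stress did not move in 1 direction. Of 6 tested, 1 passed as higher and 1 as lower, beside 3.92% and 2.47% of all genes, with a median log2 fold change of -0.03. Slc6a12, the betaine transporter, was at 1.196, 1.26 and 1.03 CPM in the libraries labelled KO, against 0.146, 0.209 and 0.308 CPM in those labelled WT, whose levels rest on 6 to 14 counts a library (2.37 ± 0.40, adjusted p = 0.00590 in edgeR's quasi-likelihood test). Hspa4l, a chaperone of the heat shock protein family, was at 69.9, 65.0 and 71.3 CPM in the libraries labelled KO, against 81.1, 82.1 and 81.7 CPM in those labelled WT (-0.25 ± 0.06, adjusted p = 0.0245). The Hspa4l call was lost without any KO library or WT replicate 2 (adjusted p from 0.0720 to 0.145) and with the replicate number as a block (0.0522). Sgk1, a salt-responsive kinase gene linked to Th17 cells in mice, was at 20.9, 18.7 and 18.8 CPM in the libraries labelled KO, against 17.5, 15.0 and 13.9 CPM in those labelled WT, with no overlap, and did not pass (0.34 ± 0.11, adjusted p = 0.0874). Slc5a3, the myo-inositol transporter, was at 55.0, 50.7 and 54.8 CPM in the libraries labelled KO, against 55.7, 65.8 and 70.8 CPM in those labelled WT. Its groups did not overlap either, and it did not pass (-0.26 ± 0.08, adjusted p = 0.0958). The groups did overlap for the rest of the list, Slc6a6 and Slc38a2, the most abundant of those tested. Slc6a6 averaged 454.6 ± 7.93 CPM in the libraries labelled KO and 454.7 ± 34.5 CPM in those labelled WT. Slc38a2 averaged 398 ± 18.5 and 415 ± 38.0 CPM in the same order. Neither passed (adjusted p = 0.997 and 0.661 in edgeR's quasi-likelihood test).

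The genes whose pattern over the 6 libraries was most like that of Nfat5 were Utrn, which encodes the cytoskeletal protein utrophin, Plekha1, a phosphoinositide-binding protein gene, and Slc19a1, the folate carrier. Likeness was the root mean square difference in log2 CPM centred on the mean of the 6 libraries, among 8271 genes with a mean of at least 10 CPM. It was 0.02 for Utrn, 0.02 for Plekha1 and 0.03 for Slc19a1, beside a median of 0.20 over the genes compared. Their log2 fold changes were -0.31, -0.29 and -0.35. Likeness takes in the difference between the groups, so values near that of Nfat5 follow from how these genes were picked.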

How the data were processed

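RNA-seq of 6 libraries, 3 per genotype, was analysed, grouped by the titles and genotype labels. The remaining 7 samples of the 13, which profile chromatin, were not analysed here. Per the labels' protocols, the RNA came from TRIzol extraction and a TruSeq RNA library preparation.

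The deposited values are raw counts per gene, made by the authors, who per the file headers ran featureCounts 2.0.1 over GENCODE vM33 exons. No source used here gives the aligner version or the genome build. The counting commands of 5 libraries set no strand, and that of KO replicate 1 is printed without option names, per the file headers. Strand therefore cannot separate reads where exons of different genes overlap. From start to end, Nfatc1, Nfatc3, Nfat5, Ppp3cb, Ppp3cc and Rcan1 each overlap another gene in RefSeq, and whether counted exons overlap was not tested. Between 65.6% and 67.7% of counts from 1 to 20 were even, against 48.8% to 50.9% among the highest counts, and whether both mates of a read pair were counted was not tested. In the record of units the column of WT replicate 2 is entered as other. It holds deposited raw counts like the rest.

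Symbols were matched for 51948 of 56941 IDs (91.2%). Genes were tested by a robust quasi-likelihood F-test after default filtering and TMM scaling in edgeR 4.0.16 under R 4.3.3, with Benjamini and Hochberg adjustment. CPM use TMM library sizes, fold changes are KO over WT, and an SE is the size of a log2 fold change divided by root F. The median half-width of a 95% interval was 0.15 (log2) for genes from 20 CPM and 0.27 from 5 to 20 CPM. For a gene at 0, the limit of 3 counts covers counting error alone. No pair of libraries matched within sampling noise (the lowest chi-square by degrees of freedom was 4.19). Alternatives were DESeq2 1.42.0, limma 3.58.1 (voom, with and without library quality weights), other scalings and filters, a replicate block, and leaving out each library.

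The members and lists were chosen with earlier results of these data known. The text names the 10 members, Chaf1b, Il17a, Il17f, up to 4 called genes of each list by size of change (or, where none passed, its 3 most abundant by CPM), and the 3 genes most like a called member. Other list genes, named to complete a count or as Sgk1, Slc5a3, Slc6a6 and Slc38a2, were chosen after their values were seen. So were the genes not tested and the single markers named. Some genes that this rule or the marker lists hold are not reported here. Promoter windows are from RefSeq (GRCm38.p6).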

Additional observations from a re-analysis of the deposited data

How the results depend on the processing

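Nfat5 was below 0 in every alternative. Without each library in turn its log2 fold change ran from -0.39 to -0.27, and 4 of the 6 such fits lost its call. Over all genes the same fits gave 225 to 1589 higher and 70 to 1372 lower, against 576 and 362 with all libraries, and 0 to 1 of the 10 members higher and 0 to 2 lower. In the pathway lists they gave 0 to 7 genes of calcium entry higher and 0 to 1 lower, 0 to 2 calcineurin inhibitors higher and 0 to 1 lower, 0 to 1 NFAT kinases lower, 1 to 5 NFAT target genes lower, and 1 to 2 NFAT5 target genes higher and 0 to 3 lower. The log2 fold changes ran from -0.052 to 0.097 for Rcan1 (-0.052 without KO replicate 1, -0.033 without WT replicate 1), -0.14 to 0.18 for Ppp3ca (-0.14 without WT replicate 1, -0.053 without KO replicate 3), -0.11 to 0.10 for Nfatc2 (0.10 without WT replicate 1), -0.13 to -0.091 for Nfatc3, 0.046 to 0.25 for Ppp3cc, -0.032 to 0.014 for Orai1 (0.014 without WT replicate 2) and -0.079 to 0.015 for Ppp3r1 (0.015 without WT replicate 3).

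With no filter on low counts 746 genes were lower, with 1 lower gene of calcium entry, 1 lower inhibitor, and 3 higher and 2 lower NFAT5 target genes. The stricter filter left 0 NFAT5 target genes higher, since it removed Slc6a12. DESeq2 called 569 genes lower and 2 NFAT5 target genes higher. Library quality weights called 1558 genes higher and 1376 lower, 2 members lower, 5 calcium entry genes higher and 1 lower, 2 inhibitors higher and 1 lower, 1 kinase lower, and 2 NFAT5 target genes in each direction. With them Nfatc3 passed at -0.12, and values turned to 0.047 for Nfatc2, -0.045 for Ppp3ca and -0.0062 for Rcan1. The causes of these shifts were not tested.

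Same-numbered libraries of the groups did not deviate together (r across genes of -0.04, -0.03 and 0.00), so the numbers were not taken to pair them. The replicate block gave 440 genes higher and 231 lower, 1 calcium entry gene higher and 0 NFAT5 target genes lower, with Nfat5 at -0.32 (adjusted p = 0.0127) and the same calls for the 10 members. Shares scaled by gene length were not run, because the table gives no lengths. Counts limit precision most for Ppp3ca, at 414 to 737 a library.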
